A study of Homo sapiens with 2 samples.

Results

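Transcription factors that direct kidney development were followed in HEK293T cells, a human embryonic kidney line that carries the SV40 large T antigen. The 8 genes PAX2, PAX8, LHX1, SIX4, SALL1, SALL2, EYA3 and WT1 were taken as a named set out of 28117 genes, and each had transcripts in both deposited tables. Their estimated counts and TPM (an abundance scaled to transcript length and to a fixed library total) were summed over all RefSeq transcripts of a gene symbol. The study compared poly-A RNA of HEK293T cells transfected with tRF-3004b, a fragment of a transfer RNA, and of HEK293T cells given the non-targeting RNA GL2, called the control here. Both RNAs were synthetic, carried a 5' phosphate, were reverse transfected with Lipofectamine RNAiMax at 500 nM, and were followed by collection at 120 h. There was 1 library per group, so no difference has a replicate check or a p-value, and every ratio compares these 2 libraries, not the conditions.

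In the embryonic kidney, PAX2 and PAX8 are paired-box factors that specify the nephric lineage, and LHX1, a LIM-homeodomain factor, acts in the nephric duct and the first nephron vesicles. SIX4 and its relatives are homeodomain proteins that bind DNA together with EYA coactivators, which are also phosphatases, and SALL1 and WT1 are zinc finger factors needed in nephron progenitors. WT1 is later kept in podocytes, the filtering cells of the glomerulus, and is mutated in some Wilms tumours.

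The transfected RNAs are shown because the search for sites in the factors starts from their bases 2 to 8, the seed, in capitals. The tRF-3004b mimetic had 22 bases and the control 21.
tRF-3004b: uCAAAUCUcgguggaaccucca
control: cGUACGCGgaauacuucgauu
The heptamer complementary to the tRF-3004b seed occurred once in the 3' UTR of LHX1 and once in that of PAX8. For the other 6 factors, the transcript searched held it in neither 3' UTR nor coding sequence. The LHX1 site began at base 978 of a 3' UTR of 1481 bases, and the PAX8 site at base 1839 of 2536 bases. Both are given with their flanks from GENCODE release 29, written as DNA with the heptamer in capitals.
LHX1: atgttctgacAGATTTGcagggctttc
PAX8: gatttgctaaAGATTTGacctgactga
The base after the heptamer is C in LHX1 and A in PAX8. Of 18308 genes with a 3' UTR, 2198 (12.0%) held the tRF-3004b heptamer there, and 36 (0.197%) held the heptamer for the control seed, CGCGTAC. None of the transcripts searched for the 8 factors held CGCGTAC. A match is a description of the letters and not evidence of binding.

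The tRF-3004b library held 1809193 estimated counts and the control library 19609933, so the control was 10.8-fold deeper. CPM is a count relative to the scaled library size, and genes averaging 1 CPM or more over both libraries had a median of 34 counts in the tRF-3004b library and 433 in the control library. Intervals below are 95% intervals for counting error only, exact Poisson ones for a level and exact conditional Clopper-Pearson ones for a ratio. All 6 HEK293 markers (VIM, CDH2, KRT8, KRT18, NEFL and NEFM) were at 1 TPM or more in both libraries. Over all genes, 47.0% reached 1 TPM in the tRF-3004b library and 49.3% in the control library. VIM, an intermediate filament gene, was at 849 TPM in the tRF-3004b library and 1590 TPM in the control library. Most markers of other cells were higher in the tRF-3004b library, beside 44.5% of all genes averaging 1 CPM or more. The fibroblast markers COL1A1, COL1A2, COL3A1, DCN, LUM and PDGFRA, all 6 of them higher (log2 ratios of 0.21 to 5.18), summed to 95.1 CPM in the tRF-3004b library and 12.3 CPM in the control library. Of the 6 blood markers PTPRC, CD74, HLA-DRA, LYZ, LCP1 and HBB, 5 could be compared and all 5 were higher (1.76 to 4.57), and the list summed to 30.4 CPM in the tRF-3004b library and 3.31 CPM in the control library. Of the 8 urothelial markers UPK1A, UPK1B, UPK2, UPK3A, KRT13, KRT20, CDH1 and EPCAM, 6 could be compared and all 6 were higher (0.71 to 4.54), with sums of 45.0 CPM in the tRF-3004b library and 12.4 CPM in the control library, and UPK3A was at 0 in both. The whole interval lay above 0 for 5 of 6 fibroblast, 5 of 5 blood and 5 of 6 urothelial markers compared, against 23.3% of all genes. The intervals of PDGFRA (-1.29 to 1.42) and EPCAM (-0.40 to 1.69) held 0. Of those compared, 2 fibroblast, 4 blood and 3 urothelial markers reached 1 CPM in the tRF-3004b library alone and so could only be higher. The part of these markers in the results on the factors was not tested.

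The embryonic kidney line expressed most of the set. At a gene TPM of at least 1, 5 of the 8 factors were expressed in the tRF-3004b library (EYA3, SIX4, SALL2, SALL1 and WT1) and 6 in the control library, which adds LHX1. Over all 28117 genes, 47.0% reached that level in the tRF-3004b library and 49.3% in the control library. PAX2 lay below it in both libraries, and PAX8 had no count in either. In bulk RNA, fewer cells with a transcript and less of it per cell cannot be told apart. The order of the levels in TPM was EYA3, SIX4, SALL2, SALL1, WT1 and PAX2 in the tRF-3004b library, and EYA3, SIX4, SALL1, SALL2, WT1, LHX1 and PAX2 in the control library. Counting intervals of neighbours overlapped in the tRF-3004b library for each pair after EYA3 and SIX4, and in the control library for SALL1 with SALL2 and for SALL2 with WT1.

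**Figure D1:**
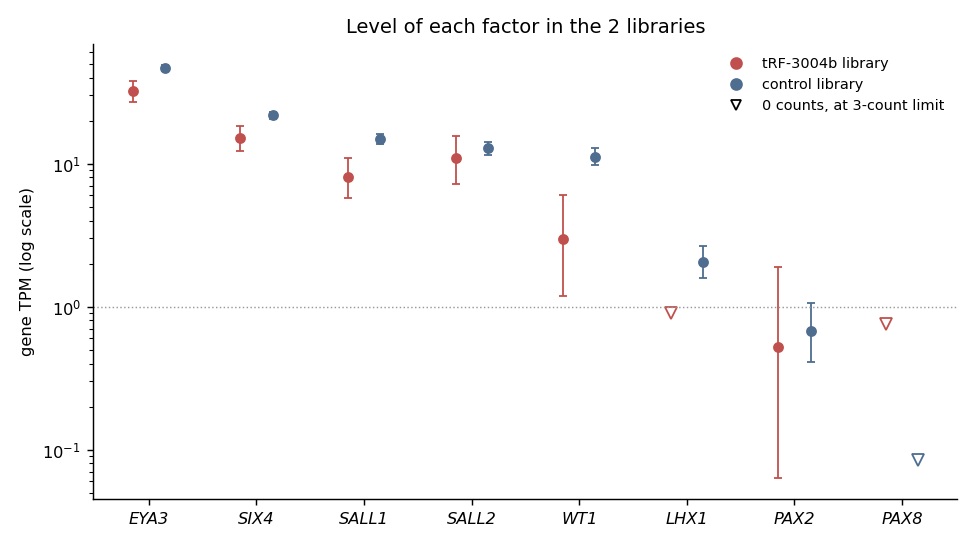
Gene TPM (log axis) of the 8 factors in the tRF-3004b library (red) and the control library (blue), with 95% counting intervals; open triangles stand at the limit that 3 counts would give where a library had 0. EYA3 is the highest in both libraries, at 32.1 TPM in the tRF-3004b library and 46.9 TPM in the control library, and PAX8 has a limit only; the dotted line is 1 TPM.

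EYA3, a coactivator of SIX4 and its relatives with tyrosine phosphatase activity (gene 2140, chromosome 1, 27970344 to 28088610, GRCh38), was the most abundant factor on the TPM scale. It had 144 estimated counts and 32.1 TPM (27.1 to 37.8) in the tRF-3004b library, against 1655 counts and 46.9 TPM (44.7 to 49.2) in the control library. That level was above 86.1% of all genes in the tRF-3004b library and 87.2% in the control library. Scaled for library size, the log2 ratio of EYA3 counts, tRF-3004b over control, was -0.03 (-0.29 to 0.21), so the counts did not differ beyond counting error. On gene TPM with 1 added, the log2 ratio of EYA3 was -0.53 and that of SIX4 -0.50, where the median of all genes was -0.38.

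SIX4, a homeodomain factor that acts with EYA proteins (gene 51804, chromosome 14, 60709539 to 60724351), came next in both libraries. It had 98 counts and 15.1 TPM (12.3 to 18.5) in the tRF-3004b library, against 1250 counts and 21.9 TPM (20.7 to 23.1) in the control library. The log2 ratio of its counts was -0.18 (-0.50 to 0.11), with 0 inside the interval. SIX6, a relative of SIX4 on the same chromosome, had no count in either library.

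SALL1, a zinc finger repressor mutated in Townes-Brocks syndrome (gene 6299, chromosome 16, 51135982 to 51152334), was lower in the tRF-3004b library by more than counting error. It had 41 counts and 8.07 TPM (5.79 to 11.0) in the tRF-3004b library, against 670 counts and 14.9 TPM (13.8 to 16.1) in the control library. The log2 ratio of the counts was -0.54 (-1.03 to -0.09), a 1.45-fold lower value. In the main SALL1 transcript, 248 of 5116 words of 31 bases also occur in transcripts of other genes. The pseudogene SALL1P1 shares the most words with SALL1 transcripts (241, on either strand), so a few SALL1 reads could be divided between them.

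SALL2, its zinc finger relative (gene 6297, chromosome 14, 21521080 to 21537121), stood close to equal. It had 28 counts and 10.9 TPM (7.22 to 15.7) in the tRF-3004b library, against 332 counts and 12.8 TPM (11.4 to 14.2) in the control library, and the log2 ratio of the counts was -0.08 (-0.69 to 0.48). On protein-coding transcripts alone the log2 ratio of SALL2 was -0.37, inside that interval. The TPM intervals of SALL1 and SALL2 overlapped within each library, so their order did not hold beyond counting error in either.

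WT1, the zinc finger factor of progenitors and podocytes (gene 7490, chromosome 11, 32387775 to 32435539), had the lowest ratio of the factors with counts in both libraries. It had 7 counts and 2.95 TPM (1.19 to 6.08) in the tRF-3004b library, against 206 counts and 11.2 TPM (9.74 to 12.9) in the control library. At an equal level, 18.3 counts would have stood in the tRF-3004b library. The log2 ratio of the counts was -1.37 (-2.72 to -0.32), 2.59-fold lower, and the interval reached from beyond 2-fold to well short of it. The antisense RNA WT1-AS, which overlaps WT1, had 0 counts in the tRF-3004b library and 3 in the control library.

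LHX1 (gene 3975, chromosome 17, 36936785 to 36944612) had no count in the tRF-3004b library, against 61 counts and 2.06 TPM (1.58 to 2.65) in the control library. A count of 0 in the tRF-3004b library allows up to 0.898 TPM, taking 3 counts as the limit, and an equal level would have given 5.43 counts. LHX1 was at least 1.81-fold lower in the tRF-3004b library against that limit, a log2 ratio of -0.86 or below, and the interval of the ratio ended at -0.51. LHX1-DT, a long non-coding RNA 124 bases from LHX1, had 1 count in the tRF-3004b library and 24 in the control library.

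The PAX factors of the kidney were below 1 TPM in both libraries, and PAX2 was detected in both. PAX2 (gene 5076, chromosome 10, 100735396 to 100829944) had 2 counts and 0.521 TPM (0.0631 to 1.88) in the tRF-3004b library, against 19 counts and 0.680 TPM (0.410 to 1.06) in the control library. Its log2 ratio of 0.22 (-2.91 to 2.29) is compatible with either direction, and on gene TPM with 1 added it was -0.14. PAX8 (gene 7849, chromosome 2, 113215997 to 113278921) had 0 counts over its 4 transcripts in both libraries. Taking 3 counts as the limit, this allows up to 0.754 TPM in the tRF-3004b library and 0.0851 TPM in the control library. PAX8-AS1, a long non-coding RNA within the PAX8 locus, had 1 count in the tRF-3004b library and 5 in the control library.

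The start regions of EYA3 and PAX8 are shown as the most abundant factor and the one without a count. Each runs from 250 bases before the start to 50 after it, on the minus strand of GRCh38.p14 (RefSeq), with GGGCGG (a GC box) and CCAAT in capitals on either strand.
EYA3 (chr1:28088561-28088860): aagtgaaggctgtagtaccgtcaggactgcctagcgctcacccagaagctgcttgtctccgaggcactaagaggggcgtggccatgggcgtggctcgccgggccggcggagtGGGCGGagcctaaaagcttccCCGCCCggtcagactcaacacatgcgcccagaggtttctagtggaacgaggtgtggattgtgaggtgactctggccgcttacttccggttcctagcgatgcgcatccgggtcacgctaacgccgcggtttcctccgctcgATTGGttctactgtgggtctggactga
PAX8 (chr2:113278872-113279171): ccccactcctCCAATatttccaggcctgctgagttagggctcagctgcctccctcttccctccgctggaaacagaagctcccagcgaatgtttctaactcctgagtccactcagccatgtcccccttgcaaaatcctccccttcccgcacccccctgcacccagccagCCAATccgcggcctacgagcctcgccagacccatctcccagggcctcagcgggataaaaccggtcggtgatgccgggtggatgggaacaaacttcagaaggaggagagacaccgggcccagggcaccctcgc
The EYA3 window held 2 GC boxes, 1 CCAAT and 25 CpG pairs, and the PAX8 window held 0, 2 and 13. Neither held TATAAA. Of 35116 such windows, 45.0% held GGGCGG, 34.6% CCAAT and 11.5% TATAAA, and the median window held 14 CpG pairs. Windows were found for 6 of the 8 factors, not for LHX1 or SALL1. The windows are a description and no statement on the factors that bind there.

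Across the set, 7 of the 8 factors averaged 1 CPM or more and entered the ratios, LHX1 through its control counts alone and PAX2 through its tRF-3004b counts, at 1.13 CPM in the tRF-3004b library and 0.953 CPM in the control library. The filter fixed the direction of both. PAX2 was above 0, against 44.5% of all genes, and the other 6 were below, against 55.5%. None was at least 2-fold higher, where 12.2% of all 13750 genes past the same filter were. WT1 was the 1 factor at least 2-fold lower, where 13.3% of all genes were, with genes at 0 in a library placed at their bound. The whole interval lay below 0 for 3 factors (SALL1, WT1 and LHX1), against 28.6% of all genes, and above 0 for none, against 23.3% of all genes. The median log2 ratio was -0.18 over the 7 factors and -0.11 over all genes. Summed over the 8 factors, the libraries held 180 CPM in the tRF-3004b library and 210 CPM in the control library, a log2 ratio of -0.22 (-0.39 to -0.06). EYA3 and SIX4 were the largest parts of this sum, at 81.1 and 55.2 CPM in the tRF-3004b library. Genes of similar transcript length had a median log2 ratio of -0.24 for EYA3 and -0.35 for SIX4, and the sum was not adjusted for length.

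**Figure D2:**
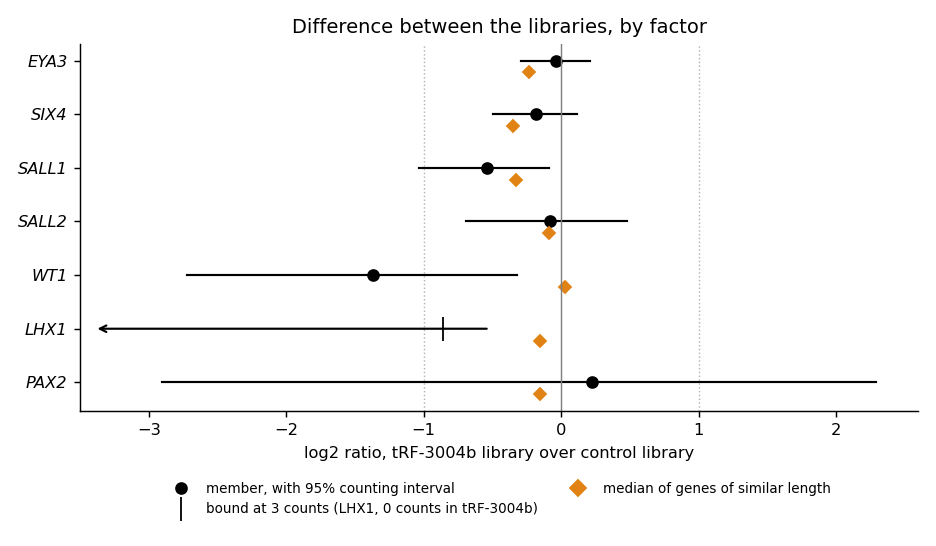
Log2 ratio of scaled counts, tRF-3004b library over control library, for the 7 factors that entered the ratios (points, with 95% counting intervals) and the median of all genes of similar transcript length (orange diamonds); the arrow marks LHX1, which had 0 counts in the tRF-3004b library, with the tick at its bound of -0.86. Intervals of SALL1, WT1 and LHX1 end below 0, and those of EYA3, SIX4, SALL2 and PAX2 cross it; dotted lines mark 2-fold.

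The ratio moved with transcript length over all genes. Split into 10 bins by length, the 13750 genes in the ratios had a median log2 ratio of 0.62 in the bin of the shortest and -0.44 in that of the longest. Spearman rho between ratio and length was -0.29, a description across genes. The median of the bin that a factor belongs to was -0.24 for EYA3, -0.35 for SIX4, -0.33 for SALL1, -0.09 for SALL2, 0.03 for WT1 and -0.15 for LHX1 and PAX2. With the trend subtracted, SALL1 stood at -0.22, WT1 at -1.42, EYA3 at 0.22 and SIX4 at 0.19. The interval of SALL1 held the median of its length bin, and the intervals of WT1 and LHX1 did not. The part of length in the ratios was not tested further.

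**Figure D3:**
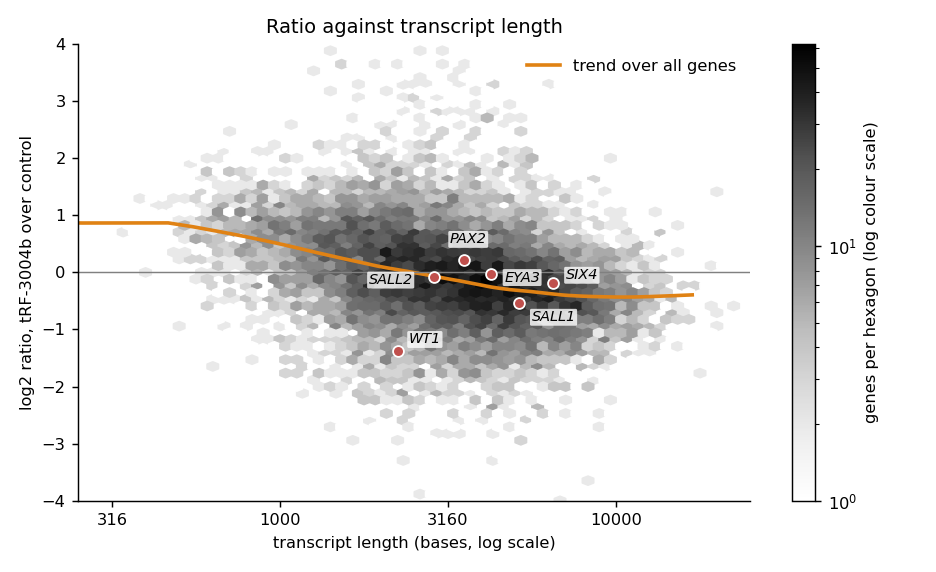
Log2 ratio, tRF-3004b library over control library, against transcript length in bases (log axis) for genes averaging 1 CPM or more, as hexagons shaded by gene number, with the trend over all genes (orange) and the 6 factors counted in both libraries (red). EYA3, SIX4 and PAX2 lie above the trend, SALL2 lies on it, and SALL1 and WT1 lie below it; genes beyond log2 ratios of -4 and 4 fall outside the axis.

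The deposited values also divide each gene among its RefSeq transcripts. These shares are kallisto's estimates without an error, and at a few counts they rest on single reads. For EYA3, the coding transcript NM_001990 made up 43.3% of the gene TPM in the tRF-3004b library and 48.4% in the control library. The shorter NM_001282560 held 10.9% in the tRF-3004b library and 38.5% in the control library, on 5.82 estimated counts in the tRF-3004b library and 267 in the control library. The non-coding NR_104214 held 23.3% in the tRF-3004b library and 7.60% in the control library, and NM_001282561 held 22.6% in the tRF-3004b library and 3.55% in the control library. The EYA3 gene counts stood near equal while the estimated split among its transcripts differed between the libraries.

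For SALL2, most of the TPM was assigned to non-coding transcripts, 70.7% in the tRF-3004b library and 59.2% in the control library. Most of the estimated counts were on the coding transcripts, which are longer. These had 15.3 counts against 12.7 for the non-coding ones in the tRF-3004b library, and 221 against 111 in the control library. NR_111967 made up all of the non-coding share in the tRF-3004b library, and 42.4% of the gene TPM in the control library. Paired GENCODE transcripts place the first base of NR_111967 at 21526500 and that of the coding NM_005407 at 21537216 on chromosome 14, minus strand, so SALL2 transcripts start at separate places. NM_005407 was listed at 17.2% in the control library and had almost no estimated count in the tRF-3004b library, on 28 counts for the gene. NM_001364564, a coding transcript of 4861 bases against 4848 for NM_005407, held 29.3% in the tRF-3004b library and 23.6% in the control library. NM_001364564 had 15.3 estimated counts in the tRF-3004b library, against 15.3 for all coding SALL2 transcripts together.

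For WT1, the libraries were assigned to different transcripts. All 7 tRF-3004b counts went to NM_001198551, which was listed at 0 in the control library. In the control library NM_001367854 held 88.1%, NM_000378 9.05% and NM_001198552 2.84%. The tRF-3004b side rests on 7 counts, and the error of this split is unknown. SALL1 was almost all NM_002968, at 100% in the tRF-3004b library and 96.7% in the control library. PAX2 had NM_001304569 at 100% in the tRF-3004b library and 77.8% in the control library, where it held 18 of 19 counts.

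**Figure D4:**
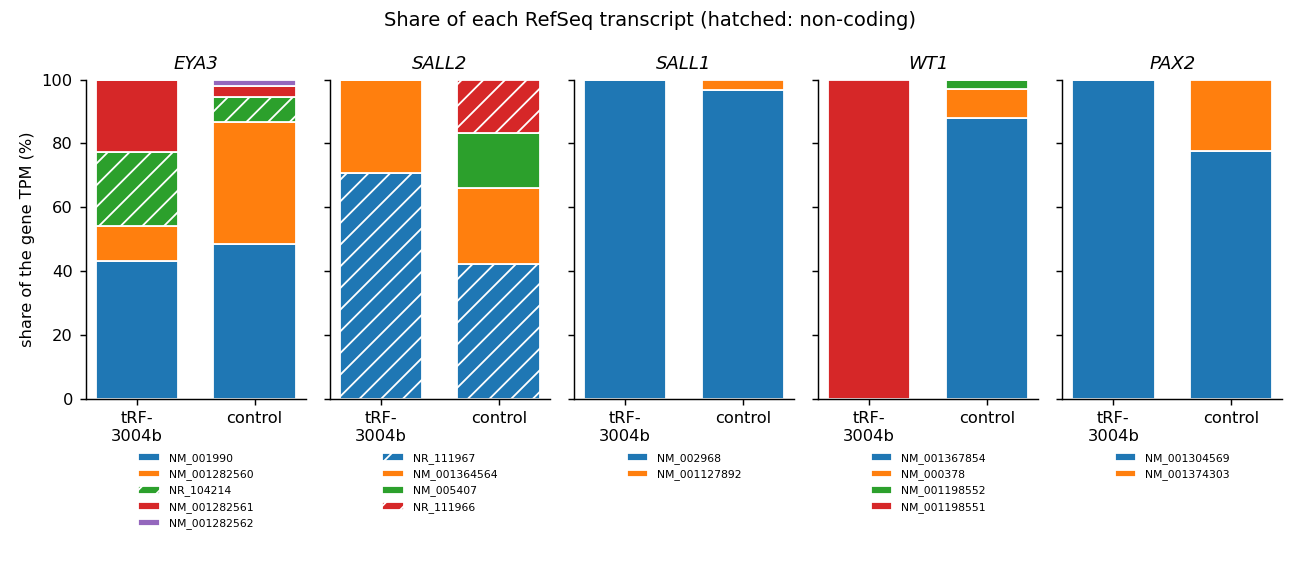
Share of the gene TPM (%) held by each RefSeq transcript of EYA3, SALL2, SALL1, WT1 and PAX2 in the tRF-3004b library (left bar) and the control library (right bar), with non-coding transcripts hatched. NM_001282560 of EYA3 is at 10.9% in the tRF-3004b library and 38.5% in the control library, and WT1 is assigned to NM_001198551 in the tRF-3004b library and mainly to NM_001367854 in the control library.

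The families of these factors were represented by other members. Of 28 paralogs, 14 were expressed in the tRF-3004b library and 15 in the control library, beside 47.0% and 49.3% of all genes in these libraries. In the ratios, which 17 of them entered, 3 were at least 2-fold higher (PAX1, LHX6 and SIX2), beside 12.2% of all genes, and 6 lower, beside 13.3%. Of the 6, SALL3 and SALL4 reached 1 CPM in the control library alone and so could only be lower. Where the kidney PAX2 and PAX8 were near or at 0, PAX6, a factor of eye and brain, had 17.1 TPM in the tRF-3004b library and 21.6 TPM in the control library. PAX3, a neural crest and muscle factor, had 4.91 TPM in the tRF-3004b library and 13.6 TPM in the control library, a log2 ratio of -1.10 (-1.96 to -0.37). PAX1 had the highest ratio of the PAX genes, 1.48, on 6 counts in the tRF-3004b library and 23 in the control library, with 0 inside its interval of -0.04 to 2.89.

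Among the LHX genes, LHX6 had 7.64 TPM in the tRF-3004b library and 4.63 TPM in the control library (log2 ratio 1.03, 0.35 to 1.68), and LHX8 had 0.928 TPM in the tRF-3004b library and 7.54 TPM in the control library (-2.59, -5.74 to -0.80). LHX1 was thus not the only LHX gene lower in the tRF-3004b library, and LHX6 was higher. Among the relatives of SIX4 and EYA3, SIX2, which keeps nephron progenitors undifferentiated, had 13.8 TPM in the tRF-3004b library and 4.94 TPM in the control library, a log2 ratio of 1.80 (1.17 to 2.44). EYA1, the main EYA gene of the kidney progenitors, had 13.7 TPM in the tRF-3004b library and 42.2 TPM in the control library, at -1.30 (-1.72 to -0.90). EYA4 was at -0.38 (-0.68 to -0.09), with 18.5 TPM in the tRF-3004b library and 31.1 TPM in the control library, and EYA2 at 0.31 (-0.79 to 1.26). EYA3 was the EYA gene with the ratio nearest 0.

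SALL3 had 1 count in the tRF-3004b library and 80 in the control library, at -2.66 (-8.15 to -0.31), and SALL4, chosen after its value was seen, had 1 count in the tRF-3004b library and 29 in the control library. EGR1, which like WT1 is a zinc finger factor that binds GC-rich sites, was at -1.50 (-2.98 to -0.37), with 1.97 TPM in the tRF-3004b library and 7.15 TPM in the control library.

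**Figure D5:**
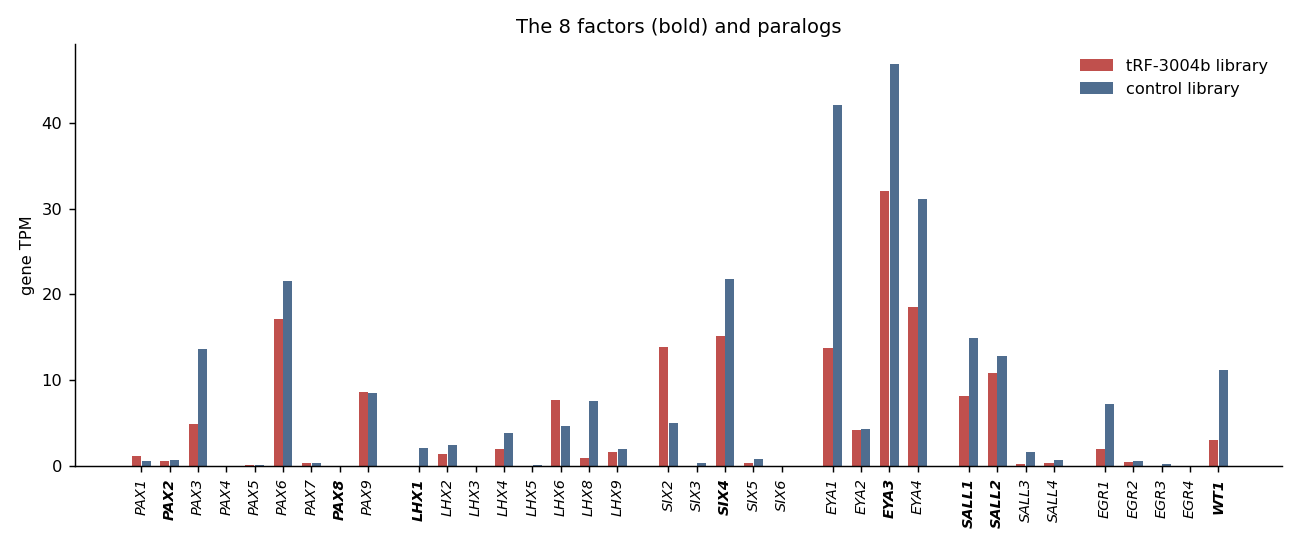
Gene TPM of the 8 factors (bold) and of paralogs, by family, in the tRF-3004b library (red, left bar) and the control library (blue, right bar). EYA3 is at 32.1 TPM in the tRF-3004b library and 46.9 TPM in the control library, and EYA1 is at 13.7 TPM in the tRF-3004b library and 42.2 TPM in the control library.

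Transcripts of partner proteins of the factors were present in both libraries. Of 35 such genes 34 were expressed in each, beside 47.0% of all genes in the tRF-3004b library and 49.3% in the control library. In the ratios, 4 were at least 2-fold higher (PAGR1, MBD3, BASP1 and WTIP) and 3 lower (SSBP4, DACH1 and MTA1). These shares, 11.4% and 8.57%, were near the 12.2% and 13.3% of all genes, and SSBP4 reached 1 CPM in the control library alone. The median log2 ratio was -0.01 over the partners and -0.11 over all genes. Of the PAX partners PAXIP1, an adaptor that joins PAX proteins to a histone methyltransferase, was at -0.25 (-0.54 to 0.03), its associated protein PAGR1 was the highest, at 1.16 (0.90 to 1.42), and the methyltransferase KMT2C the lowest, at -0.83 (-1.10 to -0.57). TLE4, a corepressor, was at -0.44 (-0.66 to -0.23). For LHX1, the LIM-binding cofactor LDB1 was at 0.32 (-0.19 to 0.79) and SSBP3 at 0.08 (-0.29 to 0.43), and SSBP4, on 1 count in the tRF-3004b library and 35 in the control library, was the lowest, at -1.51 (-6.98 to 0.93). For SIX4 and EYA3, DACH1, a corepressor, was at -1.11 (-1.47 to -0.78), and DACH2 at -0.43 (-2.10 to 0.85).

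Of the 14 NuRD genes, the deacetylase complex that SALL1 recruits, 1 was at least 2-fold higher and 1 lower, beside 12.2% and 13.3% of all genes, at a median log2 ratio of 0.00. MBD3 was the highest, at 1.08 (0.38 to 1.75), MTA1 the lowest, at -1.43 (-1.88 to -1.01), and RBBP7 was at 0.12 (0.02 to 0.22). CDK2AP1 was at 0.86 (0.71 to 1.01). The 5 WT1 partner genes were all above 0, as were 44.5% of all genes, with a median of 0.62. BASP1, a corepressor of WT1, was at 1.76 (0.37 to 3.11) on 7 counts in the tRF-3004b library and 22 in the control library. WTIP, chosen after its value was seen, was at 1.73 (1.10 to 2.36). WTAP, which acts in RNA methylation, was at 0.62 (0.48 to 0.75), CITED2 was at 0.15 (-0.16 to 0.44), and PAWR was at 0.03 (-0.12 to 0.18).

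Genes of nephron progenitors lay on both sides of 0. Of 15 listed genes 12 could be compared, 2 at least 2-fold higher (SIX2 and HOXA11) and 2 lower (EYA1 and NCAM1), beside 12.2% and 13.3% of all genes, with a median log2 ratio of -0.02. SIX2 and EYA1 are also counted among the paralogs. HOXA11 was at 1.31 (0.93 to 1.69) and NCAM1 at -1.18 (-1.59 to -0.80), both chosen after their values were seen. OSR1 and MEOX2 had no count in either library.

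The ureteric bud is the epithelium that branches from the nephric duct, and of its 14 listed genes 9 could be compared. Of these, 7 were at least 2-fold lower, beside 13.3% of all genes, and none higher, beside 12.2%. WNT11 and TFCP2L1, 2 of the 7, reached 1 CPM in the control library alone and so could only be lower. TFCP2L1, a collecting duct factor, was the lowest, at -3.73 (-9.23 to -1.42), on 1 count in the tRF-3004b library and 170 in the control library. GFRA1, the GDNF coreceptor, had 2 counts in the tRF-3004b library and 156 in the control library. GATA3, at 0.07 (-0.65 to 0.72), and SPRY1, at 0.48 (-0.06 to 0.99), were the most abundant. The 7 lower genes had between 1 and 7 counts in the tRF-3004b library, and the intervals of 4 lay below 0.

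The early nephron list, with Notch pathway genes, had 9 of 14 genes compared and 1 at least 2-fold lower, beside 13.3% of all genes. This was DLL1, at -1.70 (-4.05 to -0.16), and the list had a median of -0.30. HEY1 had 194 TPM in the tRF-3004b library and 302 TPM in the control library, at -0.30 (-0.44 to -0.15), HES1 was at -0.99 (-1.51 to -0.52), and CCND1 was the highest of the list, at 0.53 (-0.32 to 1.29). All 6 comparable stromal genes were below 0, as were 55.5% of all genes, at a median of -0.50, with FOXD1 at -1.25 (-1.96 to -0.63) and ALDH1A2 at -0.13 (-0.39 to 0.11). Of 13 genes of podocytes, in which WT1 acts, 9 could be compared and 3 were at least 2-fold lower, beside 13.3% of all genes. These were FOXC2, the lowest, at -1.66 (-7.14 to 0.77), PTPRO, at -1.25 (-6.72 to 1.22), and KIRREL1, at -1.47 (-2.24 to -0.80), where PTPRO and KIRREL1 were chosen after their values were seen. FOXC2 and PTPRO had 1 count each in the tRF-3004b library, reached 1 CPM in the control library alone, and had 0 inside their intervals. CD2AP was at 0.46 (0.30 to 0.61) and FOXC1 at -0.45 (-0.60 to -0.31).

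Genes of differentiated tubules were mostly below 1 TPM. Of 17, LRP2, which encodes the endocytic receptor megalin, was the only one expressed in either library, with 3.17 TPM in the tRF-3004b library and 9.60 TPM in the control library, and 7 had no count in either. Over all genes, 47.0% were expressed in the tRF-3004b library and 49.3% in the control library, and 8174 of 28117 had no count in either. The log2 ratio of LRP2 was -1.25 (-1.69 to -0.85). Of 12 ligands of the developing kidney 8 could be compared, 1 at least 2-fold higher and 1 lower, beside 12.2% and 13.3% of all genes. SLIT2 was at -0.21 (-0.36 to -0.07) and BMP7 at 0.17 (-0.29 to 0.60). The higher one, FGF20, had 4 counts in the tRF-3004b library and 0 in the control library. FGF20 reached 1 CPM in the tRF-3004b library alone and so could only be higher. WNT11, also a ureteric bud gene, was the lowest ligand, with 1 count in the tRF-3004b library and 40 in the control library. Of 11 receptor genes, all entered the ratios, 3 were at least 2-fold lower and none higher, beside 13.3% and 12.2% of all genes, at a median of -0.44. The lower ones were GFRA1 and RET, which are also on the ureteric bud list, and FZD4, and of these RET and FZD4 were chosen after their values were seen. FGFR2 was at -0.49 (-0.88 to -0.12), BMPR1A at -0.35 (-0.64 to -0.07) and LGR5 at 0.30 (-0.28 to 0.83).

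Genes with the tRF-3004b heptamer in the 3' UTR numbered 1806 among 12067 genes in the ratios, with a median log2 ratio of -0.25, and the 10261 genes without it had a median of -0.08. LHX1 is among the first group, with 0 counts in the tRF-3004b library and 61 in the control library. LHX1 entered the ratios through its control counts alone and so could only be lower. PAX8 had no count from which a ratio could be formed. WT1 and SALL1, the other factors with an interval below 0, held no site in the transcript searched. For WT1 that was NM_001198551, which had 0 estimated counts in the control library. The 3' UTR length was not matched between the genes with and without the heptamer, and the part of the site in the ratios was not tested.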

How the data were processed

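Quantification was by kallisto 0.46.1 on GRCh38 (hg38), per the submitters' processing notes. Per the file headers, the authors deposited an estimated count and a TPM value for each of 70866 RefSeq transcripts. No source used here gives the annotation release or the strand setting. Transcripts were named by a RefSeq gene table (70245) and by GENCODE release 29 (293). The 328 unnamed ones held 0.0713% of the tRF-3004b counts and 0.0723% of the control counts and were left out.

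Estimated counts were summed per gene symbol and rounded to whole numbers, and library sizes were scaled with TMM factors (edgeR 4.0.16, R 4.3.3), 0.983 for the tRF-3004b and 1.02 for the control library. No edgeR test was run, since 1 library per group leaves no spread. The log2 ratio, tRF-3004b over control, has 0.5 counts added. Reads lacked molecular identifiers and are not independent molecules, so intervals and limits cover counting error only. For a gene at 0 in 1 library, its own ratio and the 2-fold counts use a bound against 3 counts there. The shares above and below 0, the length bins, rho and trend, and the medians with and without the heptamer use the ratio with 0.5 added for such genes too. The medians of the lists and of all genes were the same with either. Ratios were used at a mean CPM of at least 1. The interval computation was tested on simulated data. Coordinates are 1-based. Seed sites were searched in the GENCODE 29 transcript paired with a gene's most abundant protein-coding RefSeq transcript that had such a pair. For WT1 this was NM_001198551, not the more abundant NM_001367854. For SALL2 it was NM_005407, not the more abundant NM_001364564.

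The members, the 23 other gene lists and the tests were chosen with earlier results of these data known. Besides the members, each list's 2 genes with the highest mean TPM and its highest and lowest ratio were named, and all markers were named; further genes are marked as chosen after their values were seen. Some genes that the rule names are not reported here. The alternatives tried were size factors of DESeq2 1.42.0, total counts, TPM with 1 added, a pseudocount of 5, coding transcripts only, CPM filters of 5 or none, thinning of the control library, removal of the length trend, and other expression thresholds. Python 3.11.15, numpy 2.4.6, pandas 2.3.3, scipy 1.17.1, statsmodels 0.14.6 and matplotlib 3.10.9 were used.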

Additional observations from a re-analysis of the deposited data

How the results depend on the processing

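Over the alternatives tried, WT1 kept a log2 ratio between -1.88 and -1.22 and SALL1 between -0.81 and -0.22. The bound of LHX1 lay between -0.91 and -0.71 where it could be formed. The -1.88 of WT1 came from a random thinning of the control library, which left WT1 at 28 counts. Without it the lowest WT1 value was -1.63, on gene TPM with 1 added. The CPM filters leave the ratio of a single gene unchanged. On gene TPM with 1 added, which moved the median of all genes to -0.38 from -0.11, SIX4 was at -0.50, EYA3 at -0.53 and the factors' median at -0.53, and 2 factors were at least 2-fold lower, WT1 and LHX1. A pseudocount of 5 also gave 2. With protein-coding transcripts alone SALL2 was at -0.37, which was also the factors' median. With the length trend subtracted SIX4 was at 0.19, EYA3 at 0.22 and the median at -0.012. The cause was not tested. At 0.5 TPM, 6 factors were expressed in the tRF-3004b library and 7 in the control library, and at 10 counts 4 and 7 were. The tRF-3004b depth limits PAX2, LHX1 and WT1, which had 2, 0 and 7 counts there. No paired analysis was possible because there is 1 library per group.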
